A study of Mus musculus with 11 samples.

Results

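The genes described here are 45 genes of mitotic kinases, the kinetochore and chromatid separation, taken by name from the 24411 genes counted in whole mouse testis. The list was given as gene names by function, with no rule on measured values, but it was chosen with earlier results of these data known. The shares of its members given below are therefore descriptions. All 45 genes were found in the table and all passed the filter on low counts in each comparison. Testes came from untreated mice aged 20 weeks. Of the 11 samples, 4 were from wild-type C57Bl/6J mice (WT). Another 4 were from Irp1-/- mice, global knockouts of Aco1, which on this background carry the Aco1 tm1Roua allele, and 3 were from Irp2-/- mice, global knockouts of Ireb2, whose origin is not given in the sources used here. Irp1 and Irp2 are the iron regulatory proteins, which bind RNA and adjust the synthesis of iron handling proteins. The capsule of each testis was removed before RNA extraction, and every knockout is carried by all cells of the testis, germ cells and somatic cells alike. Each sample was taken as 1 replicate, and the p-values measure only the spread between these samples.

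In dividing cells, cyclins switch on cyclin-dependent kinases and, with the Aurora and Polo kinases, drive entry into mitosis. The kinetochore attaches each chromosome to the spindle, and the spindle checkpoint holds back the anaphase-promoting complex (APC/C) until all are attached. The APC/C then has securin destroyed, which frees separase to cut cohesin, the ring that holds sister chromatids together. In the testis the same machinery serves the mitoses of spermatogonia and, in spermatocytes, both meiotic divisions, where meiosis-specific paralogs replace some subunits.

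Total counts per sample ranged from 15902473 to 22451417. Aco1, the gene deleted in Irp1-/- mice, was at 11.8 ± 1.36 CPM (SD, n = 4) in WT testes, and its Irp1-/- level was 8.58 ± 0.622 CPM (SD, n = 4), where CPM are the counts of a gene scaled to a common library size. The log2 fold change of Aco1 was -0.45 (edgeR, adjusted p = 0.0158), and its adjusted p was 0.0683 when Irp1-/- replicate 6 was left out and 0.0711, 0.0520 and 0.0750 when WT replicate 2, 3 or 4 was. Ireb2 was at 62.2 ± 0.514 CPM (SD, n = 3) in Irp2-/- and 140 ± 5.84 CPM in WT testes (edgeR, adjusted p = 2.8e-13). Markers of every germ cell stage were detected, so the samples hold the germ cells that the tissue label implies. Of the markers of other tissues and cells, the red blood cell gene Hbb-bs and the epididymal genes Lcn5 and Spink11 were at 0 in every sample. Other genes of these lists were detected. Red blood cell markers summed to 39.4 to 54.4 CPM in WT, 50.9 to 82.5 CPM in Irp1-/- and 30.9 to 53.7 CPM in Irp2-/- testes. All 4 tested ones were positive in Irp1-/- against WT testes (median log2 fold change 0.60), with 0 at an unadjusted p under 0.05 in edgeR. The epididymal gene Rnase10 was at 3.36 CPM in WT testes.

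Promoter letters are shown first for members lower in Irp1-/- than in WT testes without overlap, at an unadjusted p under 0.05 in edgeR. Many genes of mitosis are known to carry a CCAAT box, bound by NF-Y. Many also carry a cell cycle homology region (CHR), bound by the MuvB complexes. Windows from 250 bases before to 50 bases after the RefSeq start on GRCm38.p6 were searched on both strands for CCAAT, for the CHR letters TTTGAA or TTCGAA, and for the E2F letters TTCCCGC or TTGGCGC. The complement of the last ends in letters that a CCAAT match can share, so matches can overlap. A window was given for 36 of the 45 genes, 37 windows in all. CCAAT was found in 73.0% of these windows and in 37.4% of all 32851 windows of that length. The CHR letters were found in 54.1% against 19.2%, and the E2F letters in 21.6% against 6.81%. A CCAAT box and a CHR in the same window stood in 51.4% of the members' windows and in 7.52% of all windows. The 250 bases before the start are printed for Bub1 (minus strand, chr2:127831860-127832109), Top2a (minus strand, chr11:99024190-99024439), Stag1 (plus strand, chr9:100643198-100643447, a start inside the annotated gene) and Cdk2 (minus strand, chr10:128705052-128705301), 5′ to 3′ along each gene, with every match in capitals.
Bub1: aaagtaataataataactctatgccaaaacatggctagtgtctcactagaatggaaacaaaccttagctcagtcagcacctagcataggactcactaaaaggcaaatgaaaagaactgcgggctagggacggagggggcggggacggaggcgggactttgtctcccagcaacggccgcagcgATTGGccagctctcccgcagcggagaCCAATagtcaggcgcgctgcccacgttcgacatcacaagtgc
Top2a: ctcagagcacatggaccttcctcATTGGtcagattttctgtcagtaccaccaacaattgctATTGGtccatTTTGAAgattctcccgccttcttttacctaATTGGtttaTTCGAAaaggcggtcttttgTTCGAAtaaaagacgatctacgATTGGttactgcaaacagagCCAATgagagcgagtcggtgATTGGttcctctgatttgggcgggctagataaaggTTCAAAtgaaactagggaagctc
Stag1: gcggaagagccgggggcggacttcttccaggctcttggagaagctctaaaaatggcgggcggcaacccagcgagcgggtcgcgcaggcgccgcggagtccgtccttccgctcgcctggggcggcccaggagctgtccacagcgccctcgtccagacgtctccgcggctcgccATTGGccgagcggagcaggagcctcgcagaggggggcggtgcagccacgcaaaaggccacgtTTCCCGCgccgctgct
Cdk2: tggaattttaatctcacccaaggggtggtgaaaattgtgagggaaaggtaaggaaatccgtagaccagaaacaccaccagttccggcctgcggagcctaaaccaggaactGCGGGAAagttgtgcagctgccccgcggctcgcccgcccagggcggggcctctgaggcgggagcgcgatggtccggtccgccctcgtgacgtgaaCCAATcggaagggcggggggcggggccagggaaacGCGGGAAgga
Top2a carried many matches to both the CCAAT and the CHR letters, while Stag1 and Cdk2 joined a CCAAT box with E2F letters. Bub1 had a pair of CCAAT boxes and its CHR match lay just after the start, outside the printed bases. In Ndc80 and Nuf2 none of these letters was found before the start, and their bases are not printed. Ccne2 and Smc4 met the same rule but had no window. Against WT, Irp1-/- testes had a median of -0.05 on the log2 fold scale both for the 18 members with a CCAAT box and a CHR in 1 window and for the 18 others with a window. Over the 924 tested genes of any kind with both motifs this median was 0.00.

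In WT testes the 45 genes were mostly well expressed. On the scale of CPM per kb of exon, their median was 14.6, against 5.05 for 15862 tested genes with a known length. Of the 45 genes, 38 lay above that value. The length was that of all annotated exons merged, not of the transcripts used in testis, which limits comparisons between genes. Smc4, the ATPase subunit shared by both condensin complexes, had the highest level, 124.5 ± 2.96 CPM per kb (SD, n = 4). It was followed by Ccnb2, one of the B-type cyclins that activate Cdk1, at 95.3 ± 3.71, and by Aurka, the Aurora kinase of the spindle poles, at 75.5 ± 2.72 CPM per kb. These 3 levels did not overlap between genes in any WT sample. Cdc20, the activator through which the APC/C is switched on at anaphase, stood at 60.2 ± 1.23 and Plk1, the Polo kinase, at 50.2 ± 3.12 CPM per kb. At the low end, Mad2l1, the checkpoint protein that captures Cdc20, was at 1.46 ± 0.239, Cenpa, the histone H3 variant of centromeres, at 1.65 ± 0.252, and Smc1a, the mitotic partner of Smc3 in the cohesin ring, at 2.06 ± 0.305 CPM per kb. Mad2l1 and Cenpa overlapped in their WT ranges, and so did Cenpa and Smc1a. The place of Mad2l1 rests on its exon length of 8032 bases. Before scaling by length its WT mean was 11.7 CPM, against 2.71 CPM for Cenpa and 9.67 CPM for Smc1a. Cenpa rested on 34 to 71 counts per sample, the fewest of the list, and its coefficient of variation was the highest in Irp1-/- testes, 14.6%, and in Irp2-/- testes, 22.7%. Over all members the median coefficient of variation between replicates was 4.47% in WT, 4.27% in Irp1-/- and 5.52% in Irp2-/- testes.

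**Figure D1:**
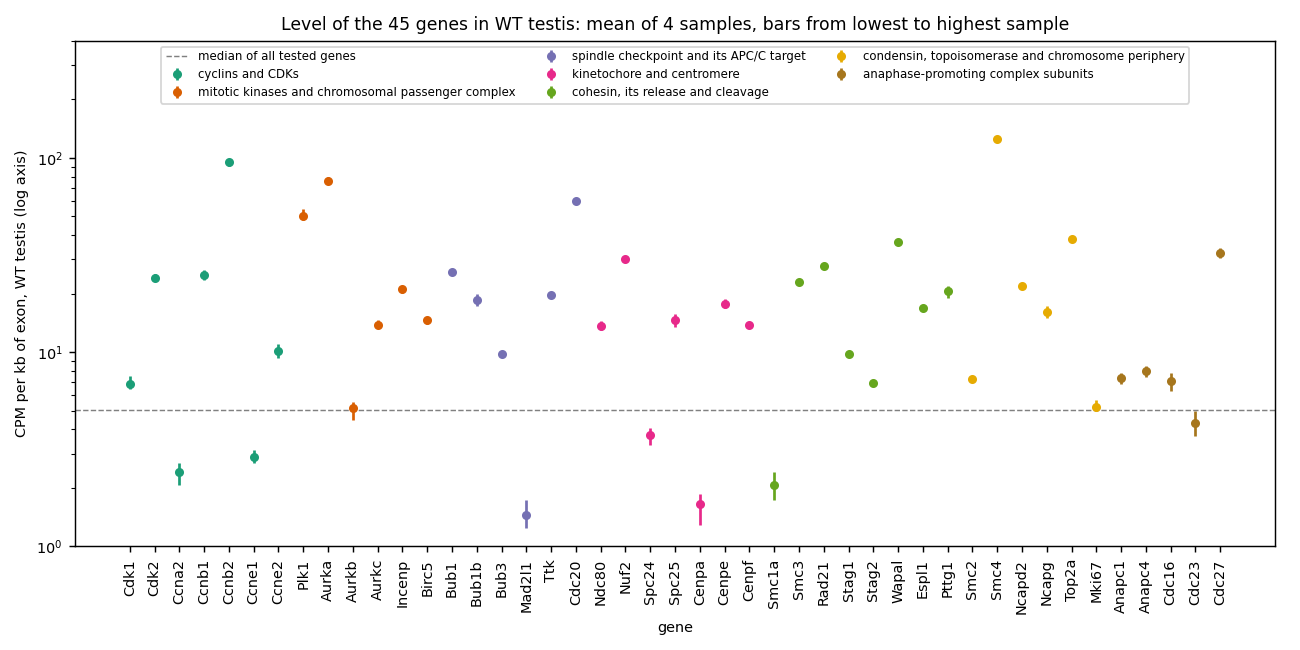
Level of each of the 45 genes in WT testes in CPM per kb of exon (log axis), as the mean of 4 samples with a bar from the lowest to the highest sample, coloured by role; the dashed line is the median of all tested genes. Smc4 is highest at 124.5 and Mad2l1 lowest at 1.46, and 38 genes lie above the line.

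Within families the levels per kb were far apart in WT testes. Ccnb2 exceeded Ccnb1 (24.9 ± 1.24), and the E-type cyclin Ccne2 (10.2 ± 0.706) exceeded Ccne1 (2.89 ± 0.192 CPM per kb), both partners of Cdk2 at the start of DNA replication. Cdk2 (24.1 ± 0.889) lay above Cdk1 (6.83 ± 0.482), the kinase of mitotic entry, and Aurkc (13.8 ± 0.618), the Aurora kinase known from meiotic cells, lay above Aurkb (5.17 ± 0.474 CPM per kb). In each of these 4 pairs every WT sample gave the same order. Levels also differed within complexes whose subunits work together. In the NDC80 complex, which binds microtubules, Nuf2 stood at 30.2 and Spc24 at 3.74 CPM per kb. In the APC/C, Cdc27 stood at 32.2 and Cdc23 at 4.31 CPM per kb.

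The first comparison asked how the 45 genes stood in Irp1-/- against WT testes. Most lay slightly lower, and none passed the test over all genes. Of the 45 genes, 33 had a negative log2 fold change, 73.3%, against 50.3% of the 16002 genes tested, and the median was -0.04 for the members and 0.00 for all genes. The number of members with an adjusted p under 0.05 was 0 in edgeR and 0 in DESeq2, while edgeR called 1.02% of all tested genes, 0.581% higher and 0.444% lower. At an unadjusted p under 0.05 (edgeR), 8 members were lower, 17.8%, against 5.44% of all genes, and 1 was higher, 2.22%, against 6.69% of all genes. In 9 members, 20%, every Irp1-/- sample lay below every WT sample, against 3.42% of all genes, and in 3 members, 6.67%, every one lay above, against 3.21%. The smallest adjusted p was 0.0822. In bulk tissue, fewer cells of a type and less RNA per cell cannot be told apart.

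Among cyclins and their kinases, 5 of 7 had a negative fold change. Ccne2 had the lowest fold change of all 45 genes. It was at 29.9, 32.6, 35.4 and 32.3 CPM in the WT samples and at 28.2, 28.6, 29.3 and 28.2 CPM in the Irp1-/- samples. The highest Irp1-/- sample lay just under the lowest WT sample, and the log2 fold change was -0.19 (SE 0.057, edgeR adjusted p = 0.123). Cdk2 was at 56.5, 56.4, 58.4 and 61.0 CPM in WT and at 56.0, 53.2, 53.3 and 53.1 CPM in Irp1-/- testes (log2 fold change -0.11, SE 0.046, edgeR adjusted p = 0.327). Its Irp1-/- replicate 1 stood apart from the other 3 and close to the lowest WT samples. Ccne1 had the opposite sign to Ccne2, with 5.77, 6.28, 5.35 and 5.70 CPM in WT and 6.28, 6.38, 6.34 and 6.66 CPM in Irp1-/- testes (log2 fold change 0.15, SE 0.11, edgeR adjusted p = 0.624). The groups of Ccne1 met within the printed digits. Cdk1, Ccna2, Ccnb1 and Ccnb2, the cyclins and kinase of G2 and mitosis, lay between -0.05 and 0.02 on the log2 fold scale, and their groups overlapped.

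The spindle checkpoint list had a negative fold change in 6 of 6 genes, and in Bub1 the smallest p of all 45. Bub1, the kinase that marks centromeres through histone H2A and recruits other checkpoint proteins, was at 90.2, 89.0, 87.4 and 88.2 CPM in WT and at 78.3, 82.6, 78.7 and 80.7 CPM in Irp1-/- testes. Every Irp1-/- sample lay clearly below every WT sample. The log2 fold change was -0.15 (SE 0.041), the unadjusted p of edgeR 0.0012 and its adjusted p 0.0822. Under the alternatives the adjusted p of Bub1 lay between 0.0717 and 0.289. Cdc20 was at 111, 107, 107 and 106 CPM in WT and at 104, 96.9, 104 and 106 CPM in Irp1-/- testes, with the highest Irp1-/- sample just below the lowest WT sample (log2 fold change -0.07, SE 0.041, edgeR adjusted p = 0.511). Without Irp1-/- replicate 2, the lowest sample of Cdc20, the log2 fold change was -0.04 (edgeR adjusted p = 0.769). Mad2l1, Bub1b, Bub3 and Ttk overlapped between the genotypes.

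At the kinetochore, both partners of the microtubule-binding dimer of the NDC80 complex were lower without overlap. Ndc80 was at 30.2, 29.6, 31.7 and 28.5 CPM in WT and at 27.0, 27.3, 26.9 and 26.5 CPM in Irp1-/- testes (log2 fold change -0.16, SE 0.056, edgeR adjusted p = 0.215). Nuf2 was at 80.5, 85.1, 84.8 and 84.0 CPM in WT and at 76.3, 76.2, 79.0 and 77.4 CPM in Irp1-/- testes (log2 fold change -0.11, SE 0.041, edgeR adjusted p = 0.217). In both genes the Irp1-/- samples lay closer together than the WT samples. Spc24 and Spc25, which anchor the complex at the centromere side, and Cenpa, Cenpe and Cenpf overlapped between the genotypes. The mitotic kinases and the chromosomal passenger complex (Plk1, Aurka, Aurkb, Aurkc, Incenp and Birc5) had 5 of 6 negative fold changes, the lowest -0.13 in Aurkb, and all 6 overlapped.

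**Figure D2:**
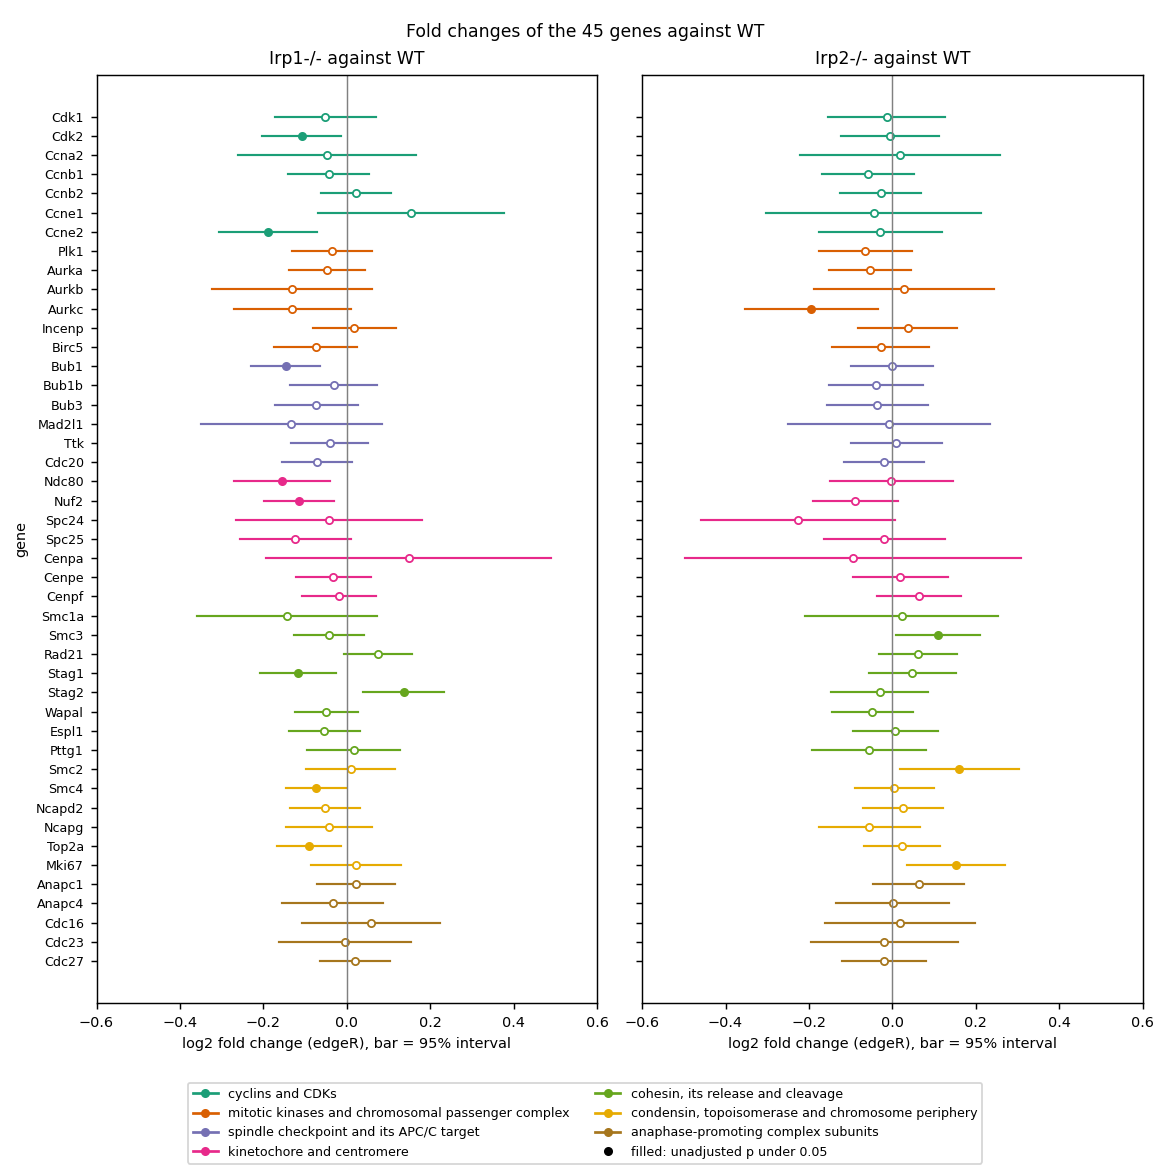
Log2 fold change of each of the 45 genes against WT in Irp1-/- (left) and Irp2-/- testes (right), with the 95% interval of edgeR's quasi-likelihood fit as a bar and filled points at an unadjusted p under 0.05. On the left 33 points lie below 0 and on the right 26, and no gene has an adjusted p under 0.05 in either panel.

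Cohesin held the clearest pair of opposite signs. Stag1 and Stag2 are alternative subunits, 1 of which joins each mitotic cohesin ring. Stag1 was at 60.8, 62.1, 61.2 and 59.0 CPM in WT and at 57.6, 54.9, 56.9 and 54.5 CPM in Irp1-/- testes (log2 fold change -0.12, SE 0.045, edgeR adjusted p = 0.253). Stag2 was at 43.9, 42.6, 45.5 and 42.7 CPM in WT and at 47.9, 48.0, 49.3 and 46.9 CPM in Irp1-/- testes (log2 fold change 0.14, SE 0.047, edgeR adjusted p = 0.196). Neither gene overlapped between the genotypes, and Stag2 was the only member higher at an unadjusted p under 0.05. Within a sample, the ratio of Stag2 to Stag1 CPM was 0.719 ± 0.0238 (SD, n = 4) in WT, 0.858 ± 0.0190 (SD, n = 4) in Irp1-/- and 0.681 ± 0.0237 (SD, n = 3) in Irp2-/- testes, given as a description because the pair was chosen after its values were seen. The lowest Irp1-/- ratio, 0.830, lay above the highest of the 7 other samples, 0.744. Rad21, the subunit that separase cuts, was at 109, 112, 109 and 109 CPM in WT and at 121, 113, 116 and 114 CPM in Irp1-/- testes (log2 fold change 0.07, SE 0.040, edgeR adjusted p = 0.462). Its groups came close but did not overlap.

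Stag2 lies on the X chromosome, from 42149297 to 42277186 on mm10, and many X-linked genes had the same sign. Of 694 tested X-linked genes, 74.4% had a positive log2 fold change in Irp1-/- against WT testes (median 0.10), and 21.9% were higher at an unadjusted p under 0.05. In Irp2-/- against WT testes 40.9% of these genes were positive (median -0.04). The other X-linked member, Smc1a, did not share that sign (log2 fold change -0.14 in Irp1-/- against WT, 95% interval -0.36 to 0.07). The part of the X chromosome in the Stag2 values was not tested.

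**Figure D3:**
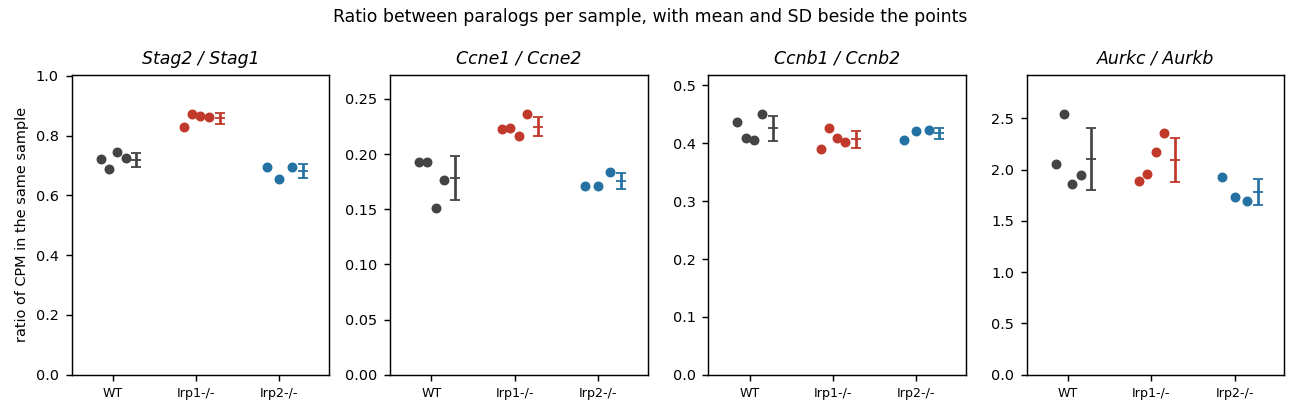
Ratio of the CPM of paralogs in the same sample for Stag2 to Stag1, Ccne1 to Ccne2, Ccnb1 to Ccnb2 and Aurkc to Aurkb, 1 point per testis, with the mean and SD beside the points (WT n = 4, Irp1-/- n = 4, Irp2-/- n = 3). The Irp1-/- points of Stag2 to Stag1 (mean 0.858) and of Ccne1 to Ccne2 (mean 0.225) lie above all points of the other genotypes. Against WT both separations follow from single genes whose groups did not overlap. The Irp1-/- points overlap the WT points in the other panels.

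The ratio of Ccne1 to Ccne2 CPM followed the same order, 0.178 ± 0.0197 in WT, 0.225 ± 0.00850 in Irp1-/- and 0.176 ± 0.00744 in Irp2-/- testes (SD). Its Irp1-/- values, from 0.216 to 0.237, lay above those of the other 7 samples, which reached 0.193. Against WT this separation follows from the values of Ccne1 and Ccne2 above, neither of which overlapped, so the ratio is given as a description. The ratios of Ccnb1 to Ccnb2 and of Aurkc to Aurkb overlapped between Irp1-/- and WT testes. In the rest of the cohesin list, Smc3, the release factor Wapal, separase (Espl1) and securin (Pttg1) overlapped between Irp1-/- and WT testes, with log2 fold changes between -0.05 and 0.02.

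Among condensin and chromosome structure genes, Top2a and Smc4 were lower without overlap. Top2a, the topoisomerase that untangles sister chromatids, was at 200, 198, 198 and 203 CPM in WT and at 187, 185, 184 and 195 CPM in Irp1-/- testes (log2 fold change -0.09, SE 0.038, edgeR adjusted p = 0.304). Smc4 was at 545, 518, 545 and 541 CPM in WT and at 510, 513, 510 and 509 CPM in Irp1-/- testes (log2 fold change -0.07, SE 0.035, edgeR adjusted p = 0.394). The Irp1-/- samples of Smc4 had the lowest coefficient of variation of any member in any genotype, 0.355%, and the WT samples were spread more widely. Smc2, the partner of Smc4, and Ncapd2, Ncapg and the proliferation antigen Mki67 overlapped. The 5 APC/C subunits (Anapc1, Anapc4, Cdc16, Cdc23 and Cdc27) had log2 fold changes between -0.03 and 0.06 and overlapped in every case.

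**Figure D4:**
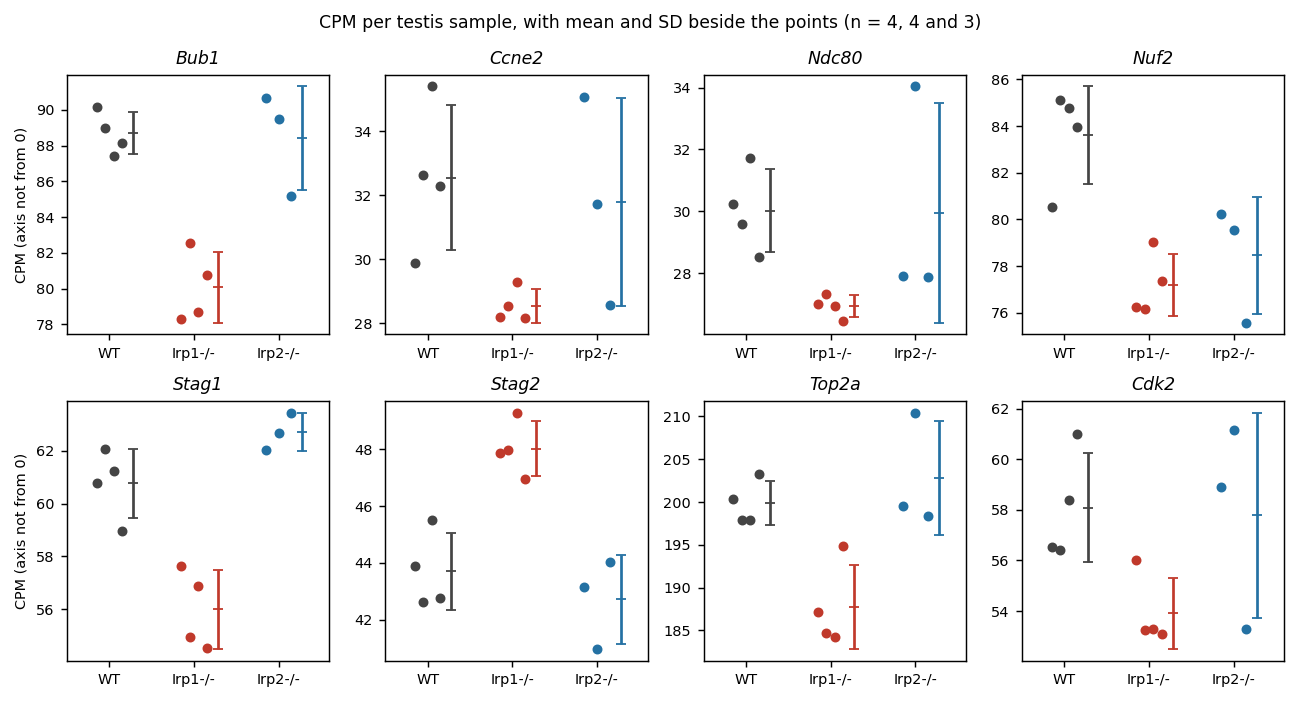
CPM of 8 genes in each testis, with the mean and SD beside the points (WT n = 4, Irp1-/- n = 4, Irp2-/- n = 3; the axes do not start at 0). In every panel the Irp1-/- points lie apart from the WT points. They are higher for Stag2 (46.9 to 49.3 CPM against 42.6 to 45.5) and lower for the other 7 genes. All 8 are members whose groups did not overlap, so the separation follows from which genes are shown. Of the 45 members, 9 were lower without overlap, 20% against 3.42% of all tested genes. Another 3 were higher without overlap, 6.67% against 3.21%.

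The intervals bound how far these genes could have moved. In Irp1-/- against WT testes the 95% interval of the log2 fold change lay within 0.25 of 0 in 34 of the 45 genes, that is within 15.9% below and 18.9% above WT, and within 0.5 of 0 in all 45. By sample, the median deviation of the members from the WT mean was -0.06 in Irp1-/- replicates 1 and 2, -0.04 in replicate 7 and 0.00 in replicate 6. It was between -0.015 and 0.015 in WT samples, with 14 to 28 of 45 members below the WT mean. In Irp2-/- replicates 1, 2 and 3 it was -0.04, 0.03 and -0.01, with 27, 19 and 26 members below. Irp1-/- replicate 6 alone carries the letter R in its label, where all other samples carry L. In it 23 of 45 members lay below the WT mean, against 31 to 37 in the other 3 Irp1-/- samples. Without that replicate 6 members had an unadjusted p under 0.05 in edgeR, and without any other single sample 6 to 10.

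**Figure D5:**
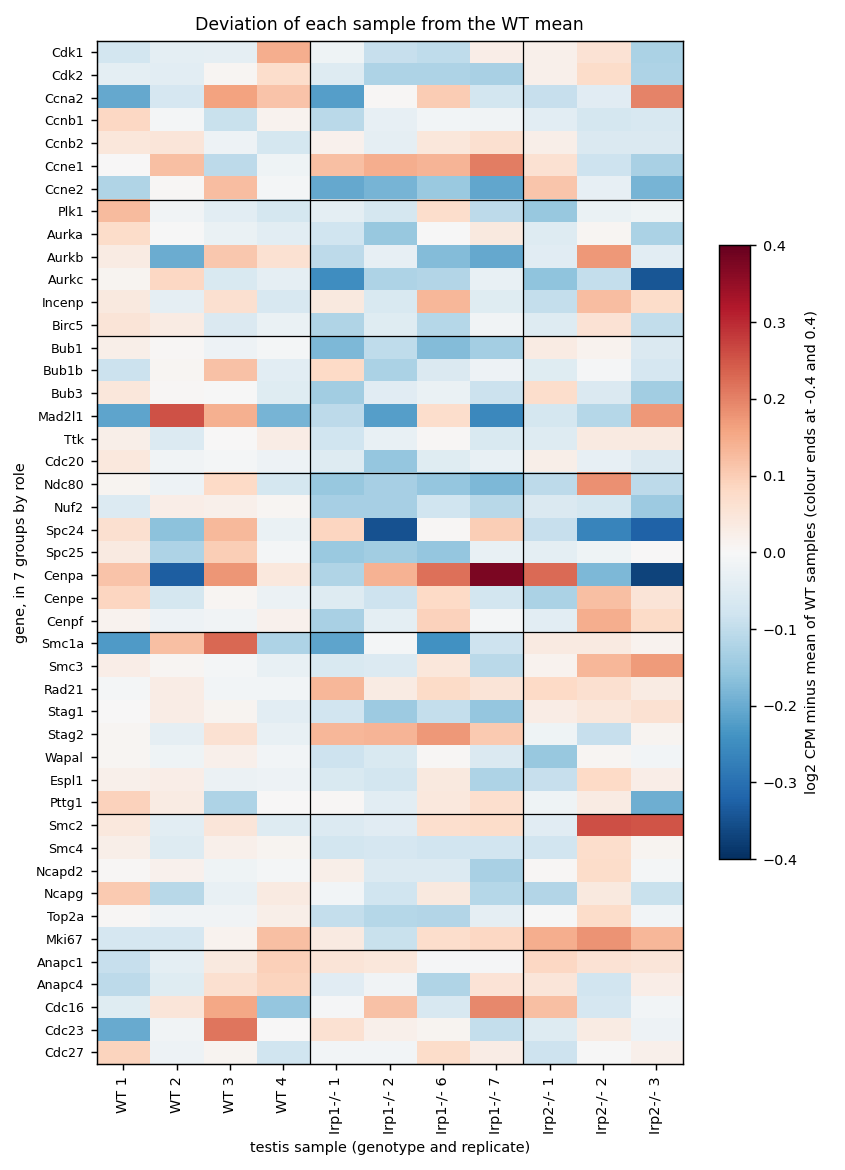
Heat map of log2 CPM minus the mean of the 4 WT samples, for 45 genes in 7 role groups (rows) and 11 testes (columns), with the colour scale ending at -0.4 and 0.4. The rows of Bub1, Ccne2, Ndc80, Nuf2 and Stag1 are blue in each Irp1-/- column and that of Stag2 is red, while Cenpa, Mad2l1 and Spc24 vary between samples of the same genotype.

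Markers of testis cell types were read in the same samples. Of 9 spermatocyte markers, 8 had a negative fold change in Irp1-/- against WT testes (median -0.08, 3 lower at an unadjusted p under 0.05 in edgeR), and 1, Spag6, was positive. The summed level of the list was 5034 to 5429 CPM in Irp1-/- and 5261 to 5413 CPM in WT testes. It was mostly that of Ldhc and Pgk2, at 2750 and 878 CPM in WT and 2736 and 876 CPM in Irp1-/- testes. Sycp1, Sycp2, Sycp3 and Hormad1 were at 233, 363, 151 and 109 CPM in WT testes. In Irp1-/- testes they were at 222, 339, 142 and 103 CPM. Of 8 tested spermatogonial markers, 6 were negative (median -0.04), and 0 had an unadjusted p under 0.05 in edgeR. Their summed level, 702 to 711 CPM in Irp1-/- and 722 to 729 CPM in WT testes, was mostly that of Ddx4, a gene of many germ cell stages, at 599 ± 6.69 and 617 ± 9.07 CPM. Of 7 round spermatid markers, 6 were positive (median 0.02), with sums of 1353 to 1412 and 1329 to 1392 CPM, and of 7 elongating spermatid markers 4 were negative (median -0.03). Of 8 Sertoli cell markers, all were positive (median 0.11), with sums of 190.7 to 210.4 CPM in Irp1-/- and 174.2 to 188.4 CPM in WT testes, and of 7 Leydig cell markers 6 were positive (median 0.40), with sums of 995 to 1191 and 737 to 1067 CPM. Over all 11 marker lists, 67 of 75 genes were tested, and the number with an adjusted p under 0.05 was 0 in edgeR and 1 in DESeq2, with 6 higher and 4 lower at an unadjusted p under 0.05 in edgeR. The part of cell composition in the members' values was not tested.

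In Irp2-/- against WT testes the 45 genes lay close to the background. The members divided into 26 with a negative and 19 with a positive log2 fold change, 57.8% negative against 48.7% of the 16154 genes tested, with a median of -0.01 against 0.00. The number of members with an adjusted p under 0.05 was 0 in edgeR and 0 in DESeq2, against 1.21% of all genes in edgeR, 0.371% higher and 0.842% lower. At an unadjusted p under 0.05 (edgeR), 3 were higher, 6.67%, against 4.69% of all genes, and 1 was lower, 2.22%, against 4.74%. DESeq2 gave 2 at that threshold, and its share over all genes is not given here. The groups did not overlap in 2 higher and 2 lower members, 4.44% each, against 4.65% and 4.58% of all genes. The comparisons of both knockouts with WT share the 4 WT samples.

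Mki67, which coats mitotic chromosomes and is known as a marker of cycling cells, had the smallest p in Irp2-/- testes. It was at 58.1, 59.5 and 57.5 CPM in Irp2-/- and at 50.1, 50.1, 53.0 and 57.1 CPM in WT samples (log2 fold change 0.15, SE 0.056, edgeR adjusted p = 0.302). The groups did not overlap, though WT replicate 4 lay close to the Irp2-/- samples. Smc2, the condensin ATPase, was at 37.8, 46.8 and 46.5 CPM in Irp2-/- and at 40.2, 38.0, 40.4 and 37.7 CPM in WT samples (log2 fold change 0.16, SE 0.069, edgeR adjusted p = 0.421). Irp2-/- replicate 1 lay among the WT samples and the other Irp2-/- samples above them all. Without that replicate the log2 fold change of Smc2 was 0.26 and its edgeR adjusted p was 0.0222, and 7 members passed an unadjusted p under 0.05. Smc3, the cohesin ATPase, was at 112, 122 and 125 CPM in Irp2-/- and at 113, 112, 110 and 109 CPM in WT samples (log2 fold change 0.11, SE 0.049, edgeR adjusted p = 0.462), with the same Irp2-/- sample among the WT values. Without Irp2-/- replicate 3, the log2 fold changes of Smc2 and Smc3 were 0.11 and 0.07 (edgeR adjusted p = 0.850 and 0.870). Without Irp2-/- replicate 3 or without WT replicate 2, 1 member was at an unadjusted p under 0.05, and without Irp2-/- replicate 2 or WT replicate 4 the count was 2.

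Aurkc was the lower gene. It was at 18.8, 19.7 and 16.6 CPM in Irp2-/- and at 21.2, 22.3, 20.2 and 20.5 CPM in WT testes, without overlap (log2 fold change -0.19, SE 0.077, edgeR adjusted p = 0.358). The Irp1-/- samples of Aurkc, at 17.7, 19.3, 19.4 and 20.6 CPM, overlapped with WT but had the same sign (log2 fold change -0.13, SE 0.068, edgeR adjusted p = 0.451). Between the knockouts its log2 fold change, Irp1-/- against Irp2-/-, was 0.07 (SE 0.080, edgeR adjusted p = 0.755), and the groups overlapped. Nuf2 was at 80.2, 79.6 and 75.6 CPM in Irp2-/- testes, below the lowest WT sample at 80.5 CPM (log2 fold change -0.09, SE 0.049, edgeR adjusted p = 0.635), and Rad21 was at 116, 115 and 113 CPM, above the highest WT sample at 112 CPM (log2 fold change 0.06, SE 0.045, edgeR adjusted p = 0.772). Spc24 had the lowest fold change, -0.23 (SE 0.11, edgeR adjusted p = 0.549), and its groups overlapped. Bub1, Ndc80 and Ccne2 had log2 fold changes of 0.00, 0.00 and -0.03. The 95% interval lay within 0.25 of 0 in 37 of the 45 genes and within 0.5 in all 45. Of the cell type markers, 1 had an adjusted p under 0.05 in edgeR and 2 in DESeq2, with 3 higher and 5 lower at an unadjusted p under 0.05 in edgeR. The 1 called in edgeR was Vwf, an endothelial gene, at 22.3 ± 1.31 CPM in Irp2-/- and 17.3 ± 1.31 CPM in WT samples. All 7 elongating spermatid markers were negative (median -0.09), with sums of 17563 to 21216 CPM in Irp2-/- and 20739 to 21612 CPM in WT samples. Their part in the members' values was not tested.

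The knockouts were also compared with each other, since a p past a threshold against WT in only 1 of them does not show that they differ. In Irp1-/- against Irp2-/- testes 28 members, 62.2%, were negative, against 50.6% of the 16281 genes tested, and the median was -0.04 against 0.00. The number with an adjusted p under 0.05 was 0 in edgeR and 0 in DESeq2, against 4.69% of all genes in edgeR, 2.92% higher and 1.76% lower. At an unadjusted p under 0.05, edgeR gave 8 lower members, 17.8%, against 7.49% of all genes, and 1 higher, 2.22%, against 8.85%. DESeq2 gave 5 members in all, and its share over all genes is not given here. In 6 members, 13.3%, the Irp1-/- samples lay below all Irp2-/- samples, against 7.67% of all genes, and in 2 members, 4.44%, above, against 7.5%.

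The smallest p values between the knockouts were those of the alternative cohesin subunits. Stag1 was at 62.0, 62.6 and 63.4 CPM in Irp2-/- testes, above every Irp1-/- sample (log2 fold change of Irp1-/- against Irp2-/- -0.16, SE 0.050, edgeR adjusted p = 0.0741). Stag2 was at 43.1, 41.0 and 44.0 CPM in Irp2-/- testes, below every Irp1-/- sample (log2 fold change 0.17, SE 0.054, edgeR adjusted p = 0.0800). With all 11 samples in 1 fit both passed, at edgeR adjusted p values of 0.0494 for Stag1 and 0.0472 for Stag2. Bub1 was at 90.6, 89.5 and 85.2 CPM in Irp2-/- testes, again above every Irp1-/- sample (log2 fold change -0.14, SE 0.048, edgeR adjusted p = 0.108). Smc3 had a log2 fold change of -0.15 (SE 0.053, edgeR adjusted p = 0.124), and its groups overlapped through Irp2-/- replicate 1. Without that replicate 2 members passed, Smc3 at an edgeR adjusted p of 0.0343 and Smc2. Ndc80, Smc1a, Top2a and Mki67 were also lower in Irp1-/- than in Irp2-/- testes without overlap, and Ccne1 was higher, with edgeR adjusted p values from 0.222 to 0.454. In Irp2-/- replicate 2 Ndc80 stood at 34.0 CPM, against 27.9 CPM in both other Irp2-/- samples, and without it the log2 fold change of Ndc80 went from -0.15 to -0.05 (edgeR adjusted p = 0.824). The count at an unadjusted p under 0.05 was 4 without Irp1-/- replicate 1 or Irp2-/- replicate 2, and 5 without Irp1-/- replicate 2.

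Some markers of other cells differed between the knockouts. Of 67 tested markers, 6 had an adjusted p under 0.05 in edgeR and 4 in DESeq2. In Irp1-/- testes these were higher for the Sertoli cell genes Amh, Fshr and Rhox5 and the Leydig cell genes Hsd3b1 and Insl3, and lower for the endothelial gene Vwf. Summed Sertoli cell markers were 190.7 to 210.4 CPM in Irp1-/- and 174.1 to 196.7 CPM in Irp2-/- testes, summed Leydig cell markers 995 to 1191 and 765 to 1007 CPM, and summed endothelial markers 32.0 to 34.3 and 39.0 to 42.8 CPM. Vwf was the largest part of the endothelial sums, at 16.1 ± 1.09 CPM in Irp1-/- and 22.3 ± 1.31 CPM in Irp2-/- testes. All 7 round spermatid markers were positive (median 0.07) and 6 of 9 spermatocyte markers negative (median -0.04). Their part in the members' values was not tested.

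The other genes of the same pathways were read from 6 further lists, with 131 genes in all and 130 tested. In Irp1-/- against WT testes 80 of these were negative. The number with an adjusted p under 0.05 was 0 in edgeR and 0 in DESeq2. At an unadjusted p under 0.05 edgeR gave 4 higher and 11 lower genes, against 6.69% higher and 5.44% lower over all genes tested. DESeq2 gave 2 higher and 4 lower genes, and its share over all genes is not given here. The 12 tested regulators of condensin and cohesin had 10 negative fold changes (median -0.06), the 12 meiotic counterparts 9 (median -0.05), the 36 other kinetochore genes 24 (median -0.05) and the 20 genes of replication licensing and proliferation 15 (median -0.03). The 36 other cyclins and kinase regulators had 17 negative fold changes (median 0.01) and the 14 other APC/C genes 5 (median 0.01). The meiotic cohesin subunits Stag3, Smc1b and Rec8 lay within their WT ranges or overlapped them, at log2 fold changes of 0.00, 0.01 and -0.05. Rad21l, a meiotic counterpart of Rad21, had the smallest p of its list, with 3.08 CPM in WT and 2.32 ± 0.773 CPM in Irp1-/- samples (log2 fold change -0.43, SE 0.19, edgeR adjusted p = 0.352). Cdkn2c, an inhibitor of the G1 kinases, was at 144 CPM in WT and 132 ± 5.26 CPM in Irp1-/- samples (log2 fold change -0.12, SE 0.041, edgeR adjusted p = 0.161). Ncaph, the condensin I subunit, had a log2 fold change of -0.17 (SE 0.071, edgeR adjusted p = 0.288) and Kif11 of -0.11 (SE 0.051, edgeR adjusted p = 0.399). The groups of Rad21l, Cdkn2c, Ncaph and Kif11 overlapped. In the other kinetochore and other APC/C lists the gene with the smallest p was higher. Cenpi was at 12.1 ± 0.942 CPM in Irp1-/- and 10.1 ± 0.573 CPM in WT samples, without overlap (log2 fold change 0.26, SE 0.088, edgeR adjusted p = 0.180). Fbxo5 had a log2 fold change of 0.30 (SE 0.18, edgeR adjusted p = 0.545), and its groups overlapped.

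In Irp2-/- against WT testes 71 of the 130 genes were negative. At an unadjusted p under 0.05 edgeR gave 2 higher and 3 lower, against 4.69% and 4.74% of all genes tested. DESeq2 gave 0 higher and 1 lower, and 0 had an adjusted p under 0.05 in edgeR or DESeq2. The smallest p was that of Casc5, the kinetochore scaffold that binds Bub1, with 34.0 ± 0.949 CPM in Irp2-/- (SD, n = 3) and 30.7 ± 0.567 CPM in WT testes (SD, n = 4), without overlap (log2 fold change 0.15, SE 0.058, edgeR adjusted p = 0.360). Between the knockouts 1 of the 130 tested genes of these lists had an adjusted p under 0.05 in edgeR, where 4.69% of all genes tested did. Cenpi, a subunit of the inner kinetochore on the X chromosome, was higher in Irp1-/- testes, at 13.3, 11.7, 12.2 and 11.1 CPM, than in Irp2-/- testes, at 9.31, 9.28 and 9.89 CPM (log2 fold change 0.35, SE 0.094, edgeR adjusted p = 0.0332). The groups did not overlap, and of the WT samples, at 10.8, 9.44, 9.89 and 10.2 CPM, 2 lay between them and 2 within the Irp2-/- range. The adjusted p was 0.0807 in DESeq2, and in edgeR it was 0.134, 0.0534 and 0.0635 without Irp1-/- replicate 1, 2 or 6 and 0.0863 and 0.135 without Irp2-/- replicate 1 or 2. Over all 706 tested X-linked genes, 74.2% were higher in Irp1-/- than in Irp2-/- testes (median 0.14), and 29.5% were so at an unadjusted p under 0.05. The part of the X chromosome in the values of Cenpi and of Stag2 between the knockouts was not tested.

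Several members share a chromosome with a targeted gene. On chromosome 4, Smc2 lies 12.3 Mb from Aco1 with 127 tested genes between them, Ccne2 lies 29.0 Mb away with 77 between them, and Cdc20 lies 78.3 Mb away. On chromosome 9, Ccnb2 lies 15.5 Mb from Ireb2, Ttk 29.0 Mb, Spc24 33.1 Mb and Stag1 45.7 Mb. The part of this position in their values was not tested.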

How the data were processed

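Polyadenylated RNA of 11 decapsulated testes (4 WT, 4 Irp1-/- and 3 Irp2-/- mice) was sequenced as stranded paired-end libraries. The authors deposited raw read counts per gene, which they obtained by running nf-core RNA-seq on mm10 with iGenomes gene models. The counting tool is not given in the sources used here, so the whole numbers could be rounded estimates. The submitters' processing notes name bcl2fastq 2.20.0.422. Total counts ranged from 15902473 to 22451417, which sets the counting error of each gene. In all 15 pairs of replicates the counts differed by more than sampling noise (chi-square per degree of freedom 2 to 7.05), so none was counted as a copy.

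Samples were grouped by their genotype labels. The 45 members and the lists of other pathway genes and cell markers were chosen with earlier results of these data known. Genes were tested on the whole table with edgeR 4.0.16 in R 4.3.3 (filterByExpr, TMM normalization, robust quasi-likelihood test) in each pair of genotypes, with Benjamini-Hochberg adjustment across every tested gene. Standard errors and 95% intervals were computed from each fold change with its F statistic. CPM were computed with TMM factors over all 11 samples, and CPM per kb with exon lengths of GENCODE vM21 on the same build. Positions and promoter windows are those of RefSeq GRCm38.p6. The fits were tested on simulated data. Named genes were the 3 members with the smallest p in each direction and members without overlap in each comparison. Spc24 met this between the knockouts, but its values are not given there. From the other lists, genes with an adjusted p under 0.05 were named. In Irp1-/- against WT the gene with the smallest p in each list was named too. In Irp2-/- against WT only Casc5, with the smallest p over these lists, was named. The meiotic cohesin genes Stag3, Smc1b and Rec8 were named outside this rule, after their values were seen. Alternatives were RLE normalization, no count filter, at least 10 counts in every sample, DESeq2 1.42.0, all 11 samples in 1 fit, a replicate block and leaving out each replicate. The letters L and R in the sample columns were not used.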

Additional observations from a re-analysis of the deposited data

Results flagged for a closer look

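Levels of the 45 genes were examined in WT and Irp1-/- testes for a single sample far from the other 3. Of 90 such groups of 4 samples, 6 stood out, where chance gives about 4.5. Cdk1 was at 33.68 CPM in WT replicate 4, against 28.94 to 29.72 CPM in the other WT samples. Rad21 was at 112.5 CPM in WT replicate 2, against 109.2 to 109.4 CPM, and Smc4 was at 518.3 CPM in the same sample, against 540.8 to 545.4 CPM. In Irp1-/- testes Cdk2 was at 56.02 CPM in replicate 1, against 53.1 to 53.29 CPM, Cdc20 was at 96.9 CPM in replicate 2, against 104.3 to 105.7 CPM, and Spc25 was at 22.68 CPM in replicate 7, against 20.81 to 21 CPM. The 6 values came from 5 different samples.

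Cenpi, an inner kinetochore gene of the further pathway lists, differed between the knockouts by a log2 fold change of 0.3515 in the direct test (edgeR, adjusted p = 0.0332). In DESeq2 its adjusted p was not under 0.05. Over the alternatives its adjusted p lay between 0.0231 (edgeR, all 11 samples in 1 fit) and 0.135 (edgeR, without Irp2-/- replicate 2).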

How the results depend on the processing

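Of the alternative values of the member counts and medians, 106 kept their direction with counts within 1.5 times the reported count, while 10 counts were smaller and 4 larger. Of those of single genes, 619 kept their direction and call, 13 lost and 4 gained the call and 8 turned sign. All counts and medians of Irp1-/- against WT testes were among the 106. In Irp2-/- against WT testes the members at an unadjusted p under 0.05 (4 as reported) numbered 2 in DESeq2, 2 with the replicate block and 1 to 7 when 1 replicate was left out, and those with an adjusted p under 0.05 (0 as reported) numbered 0 to 1 when 1 replicate was left out. In Irp1-/- against Irp2-/- testes the unadjusted count (9 as reported) was 5 in DESeq2 and 4 to 12 when 1 replicate was left out, and the adjusted count (0 as reported) was 2 in the fit of all 11 samples and 0 to 2 when 1 replicate was left out. The cause was not tested. Same-numbered samples of the genotypes correlated in their deviations by 0.0149 to 0.112, and samples with different numbers by -0.116 to 0.0889. Most samples with a same-numbered partner, but not every one, correlated best with it. These weak values do not settle whether the numbers pair the samples. With the replicate block the unadjusted counts were 8, 2 and 6 for Irp1-/- against WT, Irp2-/- against WT and Irp1-/- against Irp2-/-. In that fit 0 members passed the adjusted threshold, and the edgeR adjusted p of Aco1 in Irp1-/- against WT was 0.314. Irp1-/- samples share only the numbers 1 and 2 with the other genotypes, and Irp2-/- samples share 1, 2 and 3 with WT. A sample whose number has no partner adds nothing to the genotype effect of the block fit. Signs turned only for the targeted genes where they were not deleted. Ireb2 in Irp1-/- against WT lay between -0.0547 and 0.0175 (log2 fold change) when 1 replicate was left out, above 0 only without Irp1-/- replicate 7. Aco1 in Irp2-/- against WT was at -0.0041 with RLE, -0.0011 with at least 10 counts, -0.0047 in DESeq2, -0.0020 in the fit of all 11 samples and between -0.103 and 0.100 when 1 replicate was left out. Depth limits Cenpa most, at 34 to 71 counts per sample.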
